A study of Homo sapiens with 6 samples.

Results

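The genes described here encode the aminoacyl-tRNA synthetases, the enzymes that join each amino acid to its transfer RNA. They were chosen by name: 35 genes, of which 19 make enzymes of the cytosol and 16 make enzymes of the mitochondrion, out of 19937 genes in the count table. The rule names genes and uses no measured value, although the family was taken up with earlier results of these data known. All 35 were found in the table by their Ensembl identifiers and all 35 passed the filter on low counts, which left 12450 genes to test. VARS2, with 3 to 5 counts in each shSQLE library, passed that filter through its shControl libraries. The cells were U2OS, an established human osteosarcoma (OSA) line, grown in McCoy's 5a medium with fetal bovine serum. One group of 3 libraries came from cells with a stably expressed short hairpin RNA against SQLE (shSQLE), the gene of squalene epoxidase in the cholesterol pathway, and the other group of 3 came from cells with a scrambled, non-targeting hairpin (shControl). Both groups carried the lentiviral pGIPZ vector and had been selected with puromycin, the labels name no further treatment or time course, and which hairpin against SQLE the sequenced cells carried is not given in the sources used here. Whether replicate libraries stem from different cultures is not given in the labels, so the SDs and p-values measure the spread between these libraries, which may be technical.

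Each synthetase recognises its amino acid and the transfer RNAs that carry it, and so sets the accuracy with which the genetic code is read. The cytosolic enzymes supply the ribosomes that make most cell protein, while the mitochondrial enzymes, also encoded in the nucleus, are imported to supply the ribosomes that make the few respiratory chain subunits encoded by mitochondrial DNA. GARS1 and KARS1 make both forms from a single gene, EPRS1 charges glutamate and proline with 1 polypeptide, and FARSA and FARSB are the different subunits of the cytosolic phenylalanine enzyme. Several cytosolic synthetases sit with 3 scaffold proteins in the multisynthetase complex. When uncharged transfer RNA accumulates, or when the endoplasmic reticulum is stressed, translation of the factor ATF4 increases, and ATF4 together with C/EBP partners binds the regions upstream of many cytosolic synthetase genes. WARS1 stands apart among them because it is also a classical gene of the interferon-gamma response.

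The letters of the C/EBP-ATF response element, TGATGNAA read on either strand, were searched because ATF4 can reach genes through this DNA. The windows ran from 250 bases before to 50 bases after each transcription start in the promoter table of RefSeq (GRCh38.p14). The letters occurred in 3.62% of the 35116 windows of that length and in 4.46% of the 27305 genes. Of the 35 synthetase genes, 30 had a window. LARS1, VARS1, YARS1, AARS2 and VARS2 had none. The letters were found in 8 of the 30, and those 8 are shown as 30 bases each on the strand of the gene, with the match in capitals and 11 bases on either side.
AARS1, chr16:70289675-70289704, minus strand: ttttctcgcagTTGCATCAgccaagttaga
CARS1, chr11:3057407-3057436, minus strand: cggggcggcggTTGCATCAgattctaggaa
GARS1, chr7:30594834-30594863, plus strand: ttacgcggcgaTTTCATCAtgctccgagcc
IARS1, chr9:92293692-92293721, minus strand: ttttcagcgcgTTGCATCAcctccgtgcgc
MARS1, chr12:57488053-57488082, plus strand: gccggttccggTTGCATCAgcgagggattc
NARS1, chr18:57621804-57621833, minus strand: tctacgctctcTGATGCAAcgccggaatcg
TARS1, chr5:33440956-33440985, plus strand: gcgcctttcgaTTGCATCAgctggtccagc
YARS2, chr12:32756076-32756105, minus strand: atccacactgcTGATGGAAaaattaagttt
Of the 10 cytosolic genes with a window that were listed as known ATF4 targets, 7 held the letters (70.0%), against 0 of the 6 other cytosolic genes and 1 of the 14 mitochondrial genes (YARS2). That list was written by hand from known targets, and this element is a known site of ATF4, so the difference is no independent result. How ATF4 reaches each listed gene was not tested. In AARS1, CARS1, IARS1, MARS1, NARS1 and TARS1 the match was the sequence TGATGCAA or its reverse complement, and in CARS1, IARS1, MARS1, NARS1 and TARS1 it lay within 22 bases of the annotated start. A match describes letters in the reference genome and not a bound site.

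Library totals ran from 12212378 to 14393292 counts, and SQLE fell in shSQLE from a mean normalized count of 1713 ± 317 to one of 217 ± 12.6 (SD, n = 3 each). Its log2 fold change was -2.98, and edgeR's quasi-likelihood test, adjusted over all genes by the Benjamini-Hochberg method, gave an adjusted p of 0.000299. A normalized count is a count rescaled to the mean effective library size. Of the markers fixed for cell types, the 5 mesenchymal genes summed to between 45086 and 59233 counts per library, most of them from VIM (36305 to 46302). COL1A2, also of that list, had 0, 6 and 3 counts in shControl 1, 2 and 3 and 0 in each shSQLE library. Within that list FN1 was called lower in shSQLE (log2 fold change -2.88, edgeR adjusted p = 0.000548, called in 14 of 14 alternative fits) and so was COL1A1 (-0.65, adjusted p = 0.0452, called in 6 of 14), and the shSQLE libraries of SPARC lay below all its control libraries (-0.28, adjusted p = 0.185). Their part in the synthetase values was not tested. Of the 6 osteoblast genes, which summed to between 211 and 344 counts, RUNX2 (146 to 245) and SPP1 (60 to 109) were detected in every library, BGLAP and ALPL had at most 5 counts, and SP7 and IBSP were at 0 throughout. The epithelial, endothelial and haematopoietic lists summed to at most 76, 16 and 6 counts. Most of the epithelial sum came from EPCAM, which was detected in every library (46 to 76 counts). The library shControl 1 stood apart from the other control libraries. In 32 of the 35 synthetase genes its normalized count lay outside the range of shControl 2 and 3, below it or above it. Over the 35 genes its distance from the mean of shControl 2 and 3 had a median of 0.26 on the log2 scale, where shControl 2 and 3 differed from each other by a median of 0.05. Over the 35 genes this deviation followed the GC content of the transcript, with exceptions (Spearman's rho 0.706, a description over genes of the same libraries). MARS2, NARS1, IARS2 and EPRS1 were lowest in shControl 1 and FARSA and VARS1 were highest. MARS2, the lowest, had a GC content of 48.4%. RARS1 and RARS2 (41.1% and 41.8%) did not lie low, with deviations of 0.03 and 0.21. The main counts of calls are therefore also given without that library.

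Most synthetase genes lay somewhat higher in shSQLE, and few of them past the test. Of the 35 genes, 30 had a fitted log2 fold change above 0 (85.7%) and 5 below, compared with 48.4% above 0 among all 12450 genes tested. The genes called higher at an adjusted p under 0.05 were WARS2, YARS1 and SARS1, or 3 of 35, where 0.369% of all genes tested were called higher. VARS2 was the 1 gene called lower, where 2.84% of all genes were called lower. It passed the filter on low counts through its shControl libraries, so that it adds no support to the counts of lower genes given here. In a fit of genes with at least 10 counts in every library, 0 synthetase genes were called lower, where 2.22% of all genes were. At an unadjusted p under 0.05, 10 synthetase genes were higher and 2 lower (WARS1 and VARS2), against 4.83% and 9.89% of all genes. The 3 shSQLE libraries lay above all 3 shControl libraries in 17 of the 35 genes, where 10.0% of all genes did so, and below all of them in 3 (WARS1, HARS2 and VARS2), where 12.1% did so. The median log2 fold change was 0.27 for the 19 cytosolic genes and 0.17 for the 16 mitochondrial genes, and that of all genes tested was -0.01. The difference of the compartments' medians, 0.09, was about as large as its spread between libraries (SD 0.07). The calls depended on single libraries. Without shControl 1, 15 members were called higher and 2 lower, in a fit that called 15.6% of all genes higher and 18.3% lower. Without shControl 2 or without shControl 3, only WARS2 was called. Those fits called 0.0718% and 0.103% of all genes higher, and 1.23% and 1.58% lower. Without any 1 of the shSQLE libraries, edgeR called 0 synthetase genes, and only 0.0318% to 0.0634% of all genes higher and 0.801% to 0.835% lower. In each of these fits without an shSQLE library, 7 synthetase genes were higher and 1 lower at an unadjusted p under 0.05. The share of all genes at that level was not taken in these fits, so those counts are a description only. DESeq2 on all 6 libraries called 7 higher and 1 lower, where it called 0.957% of all genes higher and 3.47% lower. With the trends on GC content and transcript length removed from each library, 15 were called higher and 2 lower, where 12.1% of all genes were called higher and 8.68% lower, so that the larger number of calls came with a larger number everywhere.

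**Figure D1:**
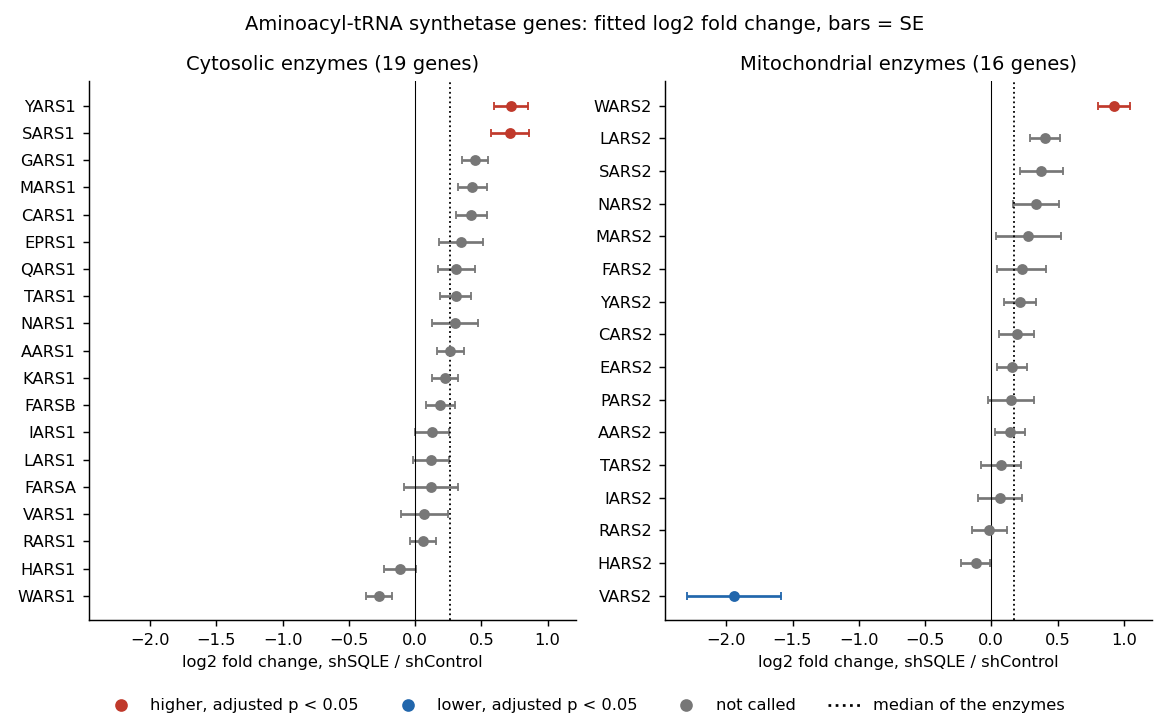
Fitted log2 fold change (shSQLE over shControl) of the 19 cytosolic (left) and 16 mitochondrial (right) synthetase genes, with standard errors as bars, the median of each group as a dotted line and called genes in colour. YARS1 and SARS1 stand at 0.72 and WARS2 at 0.93, WARS1 is the lowest cytosolic gene at -0.27, and VARS2 lies far to the left at -1.94.

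WARS2, which charges mitochondrial tryptophan transfer RNA, had the smallest p of the family. The gene lies on chromosome 1 from 119031216 to 119140654 (hg38, minus strand) and its canonical transcript has 6 exons. It had 1052, 1317 and 1336 normalized counts in shControl libraries 1, 2 and 3, and 2376, 2352 and 2316 in the shSQLE libraries. All shSQLE libraries lay above all control libraries, and they differed from each other by little. The mean rose from 1235 ± 159 to 2348 ± 30.6 (SD, n = 3 each), or by 0.93 on the log2 scale (standard error 0.12, edgeR's quasi-likelihood test, adjusted p = 0.00748). WARS2 kept its call in 11 of 14 alternative fits and lost it when any 1 of the shSQLE libraries was left out (adjusted p up to 0.064). Over its exons, 4.39% of the bases are shared with the antisense RNA WARS2-AS1, which is not in the count table.

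YARS1, the cytosolic tyrosine enzyme, lies on chromosome 1 from 32775237 to 32818031 on the minus strand. Its normalized counts were 2454, 1933 and 1894 in shControl and 3510.4, 3629 and 3227 in shSQLE, with no overlap between the groups. The mean rose from 2094 ± 313 to 3456 ± 206 (SD, n = 3 each), or by 0.72 on the log2 scale (standard error 0.13, edgeR adjusted p = 0.0261). SARS1, the cytosolic serine enzyme, which also charges the transfer RNA on which selenocysteine is made, lies on the same chromosome from 109213918 to 109238182 on the plus strand. It had 4534, 3402 and 3408 normalized counts in shControl and 6541, 6526 and 5591 in shSQLE. The lowest shSQLE library was above the highest control library, shControl 1. Its mean rose from 3781 ± 652 to 6219 ± 544 (SD, n = 3 each), or by 0.72 on the log2 scale (standard error 0.14, edgeR adjusted p = 0.0398). YARS1 and SARS1 each kept the call in 9 of 14 alternative fits. Among the 6 fits without 1 library, each kept it only without shControl 1, with log2 fold changes over all alternatives from 0.67 to 0.85 for YARS1 and from 0.65 to 0.87 for SARS1. S100PBP on the opposite strand shares 4.05% of the exon bases of YARS1, and SARS1 shares none with another gene.

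VARS2, the mitochondrial valine enzyme on chromosome 6 (30914205 to 30926459, plus strand), was barely detected. Its raw counts were 13, 19 and 15 in shControl and 3, 5 and 4 in shSQLE, and its normalized counts were 15.0, 17.2 and 14.7 against 2.94, 4.93 and 4.11. The groups did not overlap, and the log2 fold change was -1.94 (standard error 0.35, edgeR adjusted p = 0.0265). From the summed counts, 47 against 12, the level in shSQLE was 25.4% of that in shControl, with an exact 95% interval of 12.3% to 48.6% that covers counting error only. The difference was not past the threshold with the replicate number as a block, nor in 5 of the 6 fits without 1 library (all but the fit without shControl 1), and the gene left the table when 10 counts in every library were required. In GENCODE, 63.0% of the exon bases of VARS2 are shared with a non-coding RNA on the same strand that is not in the count table. Its part in the low counts was not tested.

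**Figure D2:**
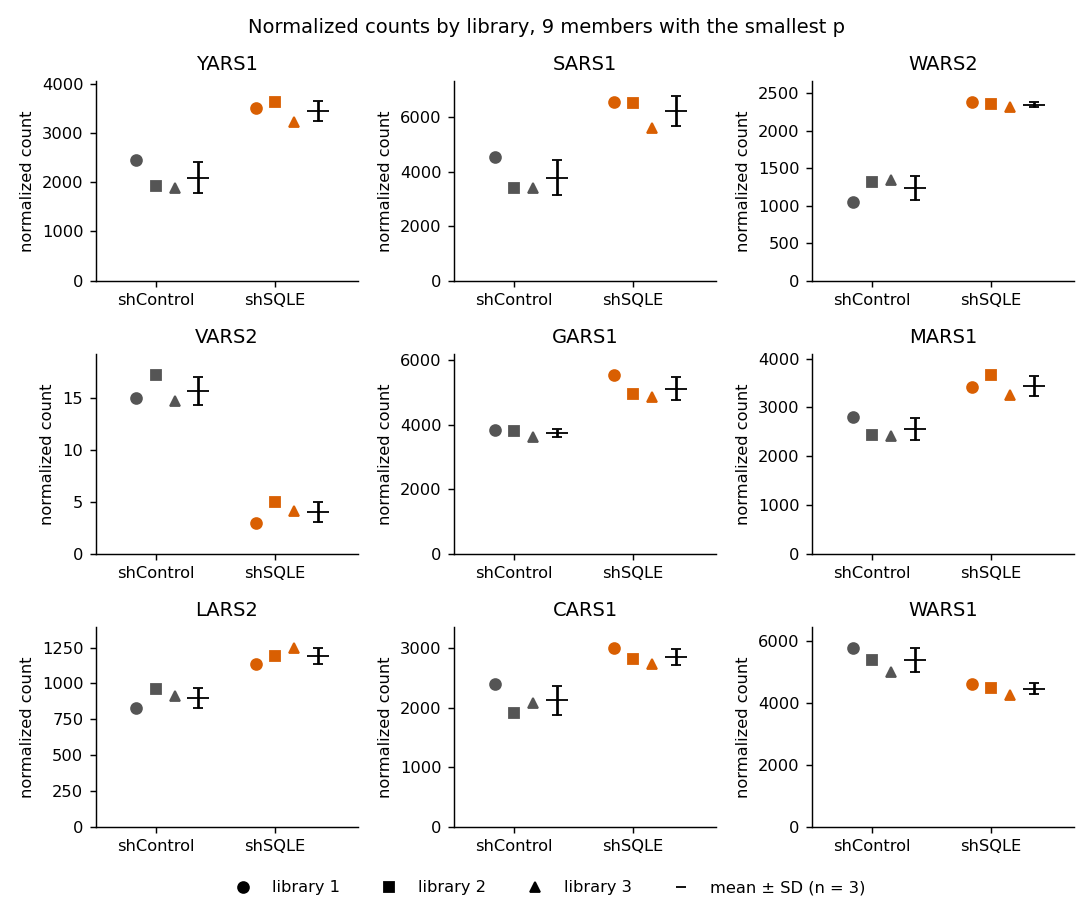
Normalized counts (y axes, from 0) in each of the 3 shControl and 3 shSQLE libraries for the 9 synthetase genes with the smallest p, with the mean ± SD beside the points. The groups are apart in each panel, shControl 1 (circle) is often the control library farthest from the others, and the VARS2 panel runs only to 17.2 counts.

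Behind the called genes, 8 more completed the 12 smallest p-values of the family, and none of them was past the adjusted p. GARS1, the glycine enzyme of both compartments, came nearest, with 3826, 3792 and 3609.9 normalized counts in shControl and 5531, 4966 and 4873 in shSQLE. Its groups were apart (log2 fold change 0.45, standard error 0.10, edgeR adjusted p = 0.0548). MARS1, the methionine enzyme of the multisynthetase complex, had 2809.5, 2434 and 2416 in shControl and 3425, 3656 and 3251 in shSQLE, again without overlap (0.43, adjusted p = 0.0886). ARHGAP9 and DDIT3 on the opposite strand share 12.4% of its exon bases. For CARS1, the cysteine enzyme, the control libraries had 2390.3, 1909.9 and 2079 normalized counts and the shSQLE libraries 2997, 2824 and 2732 (log2 fold change 0.42, adjusted p = 0.118). LARS2, the mitochondrial leucine enzyme, had 826, 959 and 909 against 1133, 1193 and 1245 (0.41, adjusted p = 0.115). In both genes every shSQLE library lay above every control library. GARS1, MARS1, CARS1 and LARS2 were past the adjusted p with DESeq2, without shControl 1, and with GC content and length taken out.

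TARS1, the cytosolic threonine enzyme, had 4766, 5723 and 5917 normalized counts in shControl and 6643, 6567 and 7066 in shSQLE (log2 fold change 0.31, edgeR adjusted p = 0.256). AARS1, the cytosolic alanine enzyme, had 2775, 2520.3 and 2384 against 3043, 3169.7 and 3016 (0.27, adjusted p = 0.274). The groups of TARS1 and of AARS1 were apart, by less than the range of their control libraries. SARS2, the mitochondrial serine enzyme, had 62.4, 57.0 and 58.9 normalized counts against 82.3, 75.9 and 73.0 (0.38, adjusted p = 0.336). A same-strand protein-coding gene that shares 48.2% of the exon bases of SARS2 had at most 1 count in any library. WARS1, the cytosolic tryptophan enzyme, was the abundant gene that pointed the other way, with 5748, 5364 and 4994 normalized counts in shControl and 4611, 4481 and 4250.0 in shSQLE. All shSQLE libraries of WARS1 lay below all control libraries, and its log2 fold change of -0.27 (standard error 0.10, edgeR adjusted p = 0.254) was past the threshold only without shControl 1 and with GC content and length taken out, with or without the replicate block.

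The remaining cytosolic genes lay between -0.11 and 0.35 on the log2 scale. In the multisynthetase complex, all 7 enzymes had a log2 fold change above 0 (median 0.22), where 48.4% of all genes tested did. Of the 7, 0 were called, near the shares of all genes (0.369% higher and 2.84% lower). MARS1 alone was at an unadjusted p under 0.05, where 4.83% of all genes were higher and 9.89% lower. By DESeq2 MARS1 was called, where 0.957% of all genes were called higher. After MARS1 came EPRS1, the glutamate and proline enzyme, at 0.35, QARS1 (glutamine) at 0.31, KARS1 (lysine) at 0.22, IARS1 (isoleucine) at 0.13, LARS1 (leucine) at 0.12 and RARS1 (arginine) at 0.06. EPRS1 shows how much the control libraries decide: it had 2084, 2993 and 3017 normalized counts in shControl against 3425, 3057 and 3824 in shSQLE, and its log2 fold change was 0.19 without shControl 1. LARS1, also known as a leucine sensor for the kinase mTORC1, stood at -0.0014 in that fit. The scaffolds AIMP2, EEF1E1 and AIMP1 were at 0.25, 0.21 and 0.08, with adjusted p-values from 0.505 to 0.817. Outside the complex, NARS1 (asparagine) stood at 0.30, FARSB and FARSA (phenylalanine, beta and alpha subunits) at 0.19 and 0.12, VARS1 (valine) at 0.07 and HARS1 (histidine) at -0.11. The control libraries of NARS1 ran from 2039 to 3229 normalized counts and those of VARS1 from 2981 to 4488, in each case with shControl 1 at the far end. Without that library the log2 fold change of VARS1 was 0.29 and that of FARSA 0.39, and both were then past the threshold.

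Among the other mitochondrial genes, NARS2 (asparagine) stood at 0.34 and MARS2 (methionine) at 0.28 on the log2 scale, with control libraries that spread widely: MARS2, a gene of a single exon, had 152, 286 and 312 normalized counts in shControl and 299.6, 318 and 296 in shSQLE. The groups overlapped in both genes. FARS2 (phenylalanine) at 0.23, YARS2 (tyrosine) at 0.22, CARS2 (cysteine) at 0.19, EARS2 (glutamate) at 0.16, PARS2 (proline) at 0.15, AARS2 (alanine) at 0.14, TARS2 (threonine) and IARS2 (isoleucine) at 0.07, RARS2 (arginine) at -0.01 and HARS2 (histidine) at -0.12 completed the list, with adjusted p-values from 0.487 to 0.980. In YARS2, EARS2 and AARS2 the shSQLE libraries lay above all control libraries, by small margins. HARS2 had 505, 533 and 522 normalized counts in shControl against 463, 483 and 490.3, so that its groups were apart by less than their own ranges. RARS2 had no direction that held, with log2 fold changes from -0.08 to 0.06 over the alternatives.

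Levels of different genes were compared per length of transcript, in TPM, which scales each count by transcript length and by library, here with the canonical transcripts of GENCODE release 44. Cytosolic synthetase genes had a median level of 159 TPM, within a range of 37.7 (FARSB) to 365 (SARS1), and mitochondrial ones a median of 19.6 TPM, within 0.397 (VARS2) to 90.9 (WARS2). The range was 9.68-fold in the cytosolic and 229-fold in the mitochondrial group. VARS2 and SARS2 share 63.0% and 48.2% of their exon bases with a gene on the same strand, and how such reads were counted is not given. Their levels, and the mitochondrial range, are therefore less certain, and a part of the overlap in them was not tested. SARS1 was the most abundant cytosolic gene on average, at 292, 274 and 285 TPM in shControl and 460.3, 443 and 438 in shSQLE. TARS1 followed with 219.8, 331 and 354 TPM against 335, 319.6 and 396, and WARS1 with 268, 314 and 303 against 235, 221 and 241. In shControl the levels of these genes overlapped, and in shSQLE they were ordered SARS1, TARS1, WARS1 without overlap. Of the mitochondrial genes, WARS2 led on average with 46.5, 72.9 and 76.7 TPM in shControl and 115, 109.7 and 125 in shSQLE. IARS2 had 45.7, 84.3 and 84.6 TPM against 66.1, 60.2 and 84.0, and CARS2 had 51.6, 55.2 and 54.2 against 58.3, 59.8 and 56.8. In shControl, IARS2 exceeded WARS2 in libraries 2 and 3 and fell just short of it in library 1, while in shSQLE WARS2 exceeded it in every library. Summed over the genes, cytosolic enzymes came to between 2744 and 3275 TPM in shControl and between 3383 and 3742 in shSQLE, and mitochondrial ones to between 353 and 473 and between 473 and 540, with an overlap for the mitochondrial sum only. The ratio of the sums stayed between 6.87 and 7.77 in the 6 libraries, with the groups overlapping. In bulk RNA, fewer transcripts per cell and fewer cells making them cannot be told apart.

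**Figure D3:**
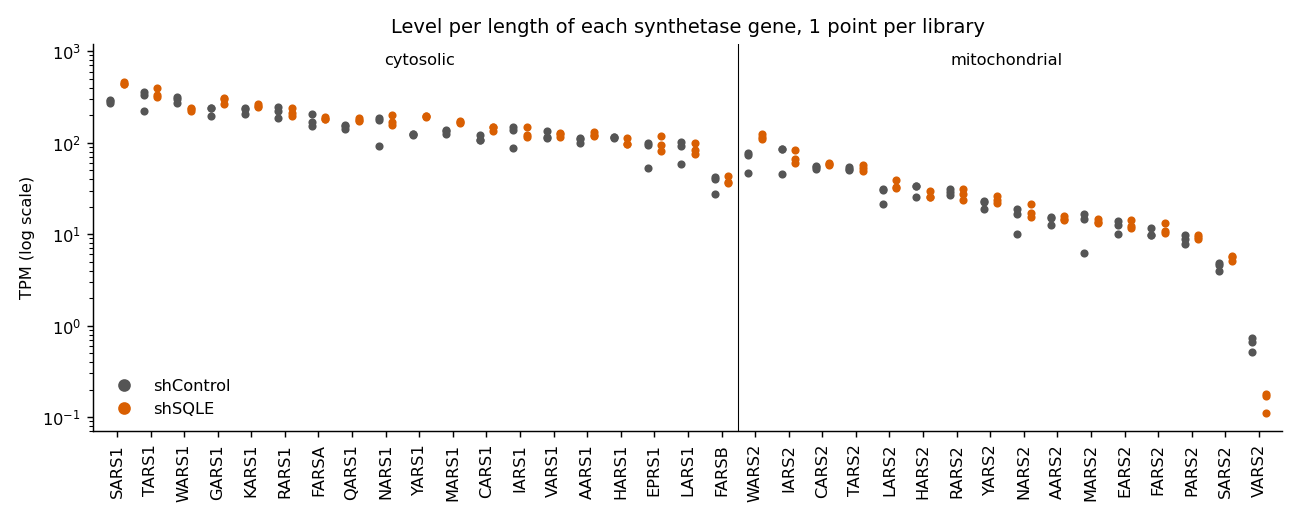
Level per length (TPM, log scale) of each synthetase gene in each library, with shControl in grey and shSQLE in orange, ordered by mean level within the cytosolic (left) and mitochondrial (right) group. The cytosolic genes stay close together, whereas the mitochondrial genes extend from 125 TPM (WARS2 in shSQLE 3) down to 0.111 (VARS2 in shSQLE 1). VARS2 had 3 to 19 counts a library and shares 63.0% of its exon bases with another gene.

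For 13 amino acids a cytosolic and a mitochondrial gene share the stem of their symbols, as WARS1 and WARS2 do, which allowed the compartments to be compared pair by pair. Phenylalanine, glutamate and proline also have separate genes but form no such pairs, since the cytosolic enzyme has different subunits or serves both amino acids. FARSA and FARSB (0.12 and 0.19) had smaller log2 fold changes than FARS2 (0.23), and EPRS1 (0.35) a larger one than EARS2 (0.16) and PARS2 (0.15). Within the 13 pairs the cytosolic gene was the more abundant per length in all 13, from 1.79-fold for isoleucine and 2.29-fold for cysteine to 73.0-fold for serine and 307-fold for valine. The folds for serine and valine rest on SARS2 (54 to 84 counts) and VARS2 (3 to 19 counts), whose exons overlap those of other genes as given above. The log2 fold change of the cytosolic gene was the larger in 10 pairs, and the mitochondrial one was the larger for tryptophan, leucine and asparagine. In 7 pairs the log2 ratio of the cytosolic to the mitochondrial level had no overlap between the groups. It was higher in shSQLE for valine, tyrosine, serine, cysteine and alanine, and lower for tryptophan and leucine. The share of other gene ratios without overlap was not taken, so that count is a description only. Among single genes tested, 10.0% lay higher and 12.1% lower without overlap. The pairs farthest apart are described without a test, since they were picked by that difference. For tryptophan, the log2 ratio of WARS1 to WARS2 was 2.53, 2.10 and 1.98 in shControl and 1.03, 1.01 and 0.95 in shSQLE. The groups were well apart, with WARS1 more abundant in every library. For valine, the log2 ratio of VARS1 to VARS2 was 8.02, 7.24 and 7.46 in shControl and 10.01, 9.49 and 9.50 in shSQLE, a difference that rests on the few counts of VARS2. For tyrosine, YARS1 over YARS2 gave 2.71, 2.39 and 2.47 against 3.15, 3.02 and 2.93, again without overlap. YARS2 itself had 326, 320.1 and 296 normalized counts in shControl and 343, 386 and 367 in shSQLE (log2 fold change 0.22, edgeR adjusted p = 0.487). The histidine pair moved least against each other. HARS1 and HARS2, which are divergently transcribed neighbours on chromosome 5 whose exons overlap, had log2 fold changes of -0.11 and -0.12. The overlap covers 0.763% of the exon bases of HARS1 and 2.9% of those of HARS2.

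**Figure D4:**
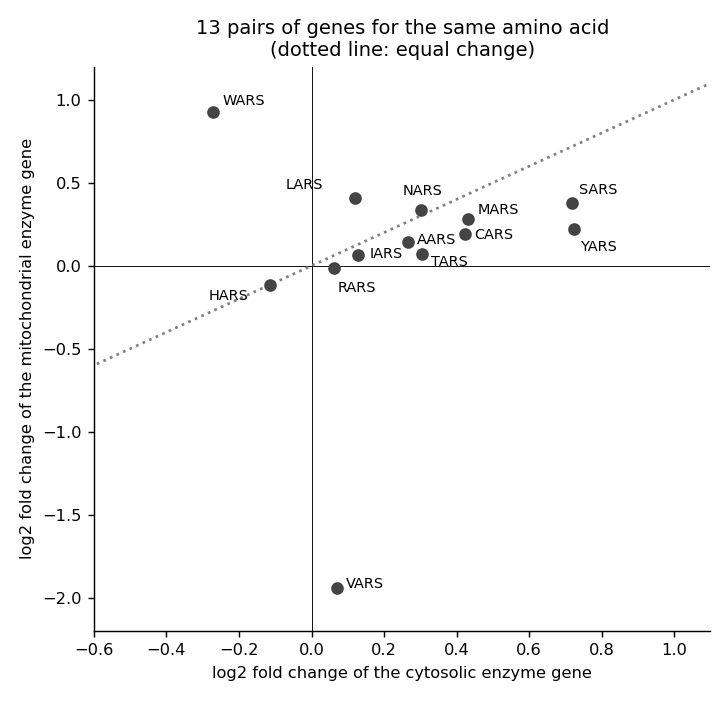
Log2 fold change (shSQLE over shControl) of the cytosolic gene (x axis) against the mitochondrial gene (y axis) for the 13 amino acids whose genes of both compartments share a symbol stem, by which they are labelled, with equal change as a dotted line. WARS lies alone at the upper left, with WARS1 at -0.27 and WARS2 at 0.93, VARS lies at the bottom, and SARS and YARS lie at the right below the line.

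The 19 cytosolic genes were divided by a list of 12 known ATF4 targets. On that list 11 genes had a log2 fold change above 0, with a median of 0.33, and 2 were called higher (SARS1 and YARS1), where 48.4% of all genes tested lay above 0 and 0.369% were called higher. WARS1, the list's gene of the interferon response, was the exception at -0.27. The other 7 cytosolic genes (FARSA, FARSB, HARS1, KARS1, QARS1, RARS1 and VARS1) had a median of 0.12, and edgeR's quasi-likelihood test called 0 of them, also with 0 at an unadjusted p under 0.05. At that level 4.83% of all genes were higher and 9.89% lower, so that 0 of 7 is near the share of all genes. Of the 12 listed genes, 7 were higher and 1 lower at that level. DESeq2 called 5 of the 12 listed genes higher and 0 of the other 7, with 1 of the 7 at an unadjusted p under 0.05, where it called 0.957% of all genes higher. Without shControl 1 both medians were 0.27. In that fit 7 of the 12 listed genes were called higher and 1 lower, and 4 of the other 7 were called higher, against 15.6% of all genes higher and 18.3% lower. With GC content and length taken out, the medians were 0.40 and 0.17, with 11 of the 12 called higher and 1 lower and 2 of the 7 called higher, against 12.1% of all genes higher and 8.68% lower. Whether the listed genes differ from the others was not tested. The letters shown above divided the genes in a further way. The 7 cytosolic genes with the response element letters had log2 fold changes from 0.13 to 0.45 (median 0.31), and the 9 with a window and no match ran from -0.27 to 0.72 (median 0.19). SARS1, one of the largest rises, belongs to the second group. Class I and class II synthetases, the families with unrelated catalytic folds, had medians of 0.19 (19 genes) and 0.23 (16 genes).

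Genes that work beside the synthetases were taken from lists and read from the same fit. Of the partners of mitochondrial charging and elongation, 8 of 9 could be tested, with a median of 0.09 and 0 called by edgeR or DESeq2. At an unadjusted p under 0.05 there was 1, GATB, a subunit of the amidotransferase that makes mitochondrial glutaminyl-tRNA, at 0.34 (adjusted p = 0.288). Of 12 genes of cytosolic transfer RNA handling and elongation, 11 could be tested, with a median of 0.15 and 0 called by either tool, and 0 at an unadjusted p under 0.05. Among all genes tested, 4.83% were higher and 9.89% lower at that level. Of the genes not tested, the mitochondrial factor TSFM had 4 to 11 counts and the cytosolic factor EEF1G had 0 counts in every library. In GENCODE, 71.2% of the exon bases of TSFM and 99.7% of those of EEF1G are shared with other genes. Whether this lowered their counts was not tested. EEF1A1, the factor that delivers charged transfer RNA to the ribosome, was at 0.15, with all shSQLE libraries (139904 to 142632 normalized counts) above all control libraries (124792 to 128735), and an adjusted p of 0.544. EEF2, the translocation factor, was at 0.24 (adjusted p = 0.500).

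Genes of amino acid synthesis and uptake came closest to the cytosolic synthetases, with 18 of 22 above 0, a median of 0.26 and 2 called higher (where 0.369% of all genes were) against 0 called lower. SLC7A5, the transporter of large neutral amino acids including tyrosine and tryptophan, had 3583, 3271 and 2862 normalized counts in shControl and 5475, 5251 and 4877 in shSQLE (log2 fold change 0.68, standard error 0.12, edgeR adjusted p = 0.0211). PHGDH, which opens the synthesis of serine, rose from 19008 ± 5446 to 42003 ± 5386 (SD, n = 3 each, 1.14, adjusted p = 0.0253), and PSAT1, the next enzyme, stood at 0.58 (adjusted p = 0.0538). MTHFD2, a mitochondrial folate enzyme, stood at 0.48 (adjusted p = 0.0751). SLC7A5 and PHGDH each kept their call in 1 of the 6 fits without 1 library, the one without shControl 1.

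The sensors and factors of the ATF4 pathway did not share this direction. Of 18 tested, 8 lay above 0 and 10 below (median -0.10), and 2 were called lower, where 2.84% of all genes were. ATF3 fell from a mean of 195 ± 21.7 to 61.6 ± 13.5 (SD, n = 3 each; log2 fold change -1.65, edgeR adjusted p = 0.00504), in normalized counts. DDIT3, the stress factor CHOP, fell from 284 ± 68.0 to 97.4 ± 20.6 (-1.54, adjusted p = 0.0124), and was not past the threshold without shSQLE 1 or without shSQLE 3. Its exons share 27.2% of their bases with MARS1 on the opposite strand, whose log2 fold change was 0.43. EIF2AK3, the kinase PERK of the endoplasmic reticulum, was at -0.67 (adjusted p = 0.0630) and the pseudokinase gene TRIB3 at -0.83 (adjusted p = 0.173). ATF4 itself, named here after its values were seen, had 6686, 4667 and 4434 normalized counts in shControl and 7111, 7455 and 6446 in shSQLE (log2 fold change 0.41, adjusted p = 0.300). Its groups overlapped through shControl 1. Transcript levels do not measure ATF4 protein, which is set mainly by translation.

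WARS1 was set beside 21 genes that interferon gamma induces, of which 17 could be tested. Of these 15 lay below 0 (median -0.46) and 3 were called lower, against 2.84% of all genes, while 0 were called higher. CXCL10, a chemokine, had a mean normalized count of 121 ± 17.5 in shControl and fell to 14.3 ± 4.73 in shSQLE (SD, n = 3 each; the log2 fold change was -3.07, edgeR adjusted p = 0.00133). APOL1 fell from 33.5 ± 1.83 to 6.96 ± 4.26 (-2.24, adjusted p = 0.0198), and TAP1, the peptide transporter, from 391 ± 78.2 to 216 ± 16.1 (-0.85, adjusted p = 0.0398). APOL1, with 4, 12 and 5 counts in the shSQLE libraries, passed the filter on low counts through its shControl libraries, so that its call adds no support to the count. Of the 15 listed genes with at least 10 counts in every library, 2 were called lower in a fit of such genes, where 2.22% of all genes were. IRF1, a transcription factor of the response, was at -0.94 (adjusted p = 0.0713). CXCL10 and ATF3 kept their calls in each of the 14 alternative fits. APOL1 was called in 9 of 13, among them 2 of the 6 fits without 1 library (those without shControl 1 and without shSQLE 2). TAP1 was called in 9 of 14, among them 1 of the 6 fits without 1 library, the one without shControl 1. A part of interferon signalling in the level of WARS1 was not tested.

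**Figure D5:**
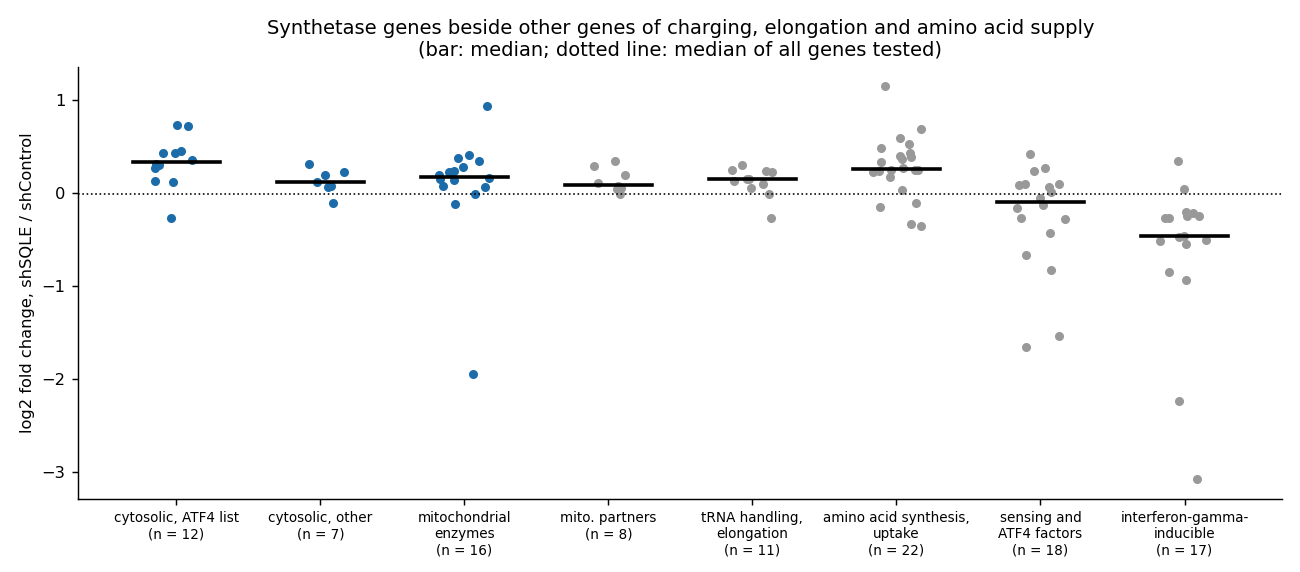
Log2 fold change (shSQLE over shControl) of each gene in 3 groups of synthetases (blue) and 5 lists of neighbouring genes (grey), with the median of each as a bar and the median of all genes tested as a dotted line. The medians run from 0.33 for cytosolic synthetases on the ATF4 list and 0.26 for amino acid synthesis and uptake to -0.10 for the sensing and ATF4 factors and -0.46 for the interferon-gamma-inducible genes.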

How the data were processed

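Poly(A) RNA of U2OS cells was sequenced as 151 bp read pairs in 6 libraries, and per the labels and the study's methods reads were trimmed with fastp 0.20.0, aligned to hg38 with STAR 2.7.9a and counted with featureCounts 2.0. What the authors deposited is this table of gene counts, not normalized in any way. The annotation release, the use of strand and the handling of reads that fit several genes are not given in the sources used here, so genes with overlapping exons are less certain. The study names DESeq2, which served as an alternative here.

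Groups were taken from the sample labels, 3 libraries each. Counts were analysed in R 4.3.3 with edgeR 4.0.16: filterByExpr, TMM normalization, the quasi-likelihood test of shSQLE against shControl over 12450 genes and Benjamini-Hochberg adjustment at 0.05 (common dispersion 0.0267). The standard error is the log2 fold change divided by the square root of F. The 32 identifiers without a symbol stayed in the fit. TPM used canonical transcripts of GENCODE release 44, and exon overlaps its exons. With 3 libraries a group, an exact two-sided permutation test of a single value cannot go below p = 0.1, so none was used. The fit was tested on simulated data. Intervals cover counting error only.

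The members, the lists, all written by hand, and the alternatives were chosen with earlier results of these data known. Every member is named. Values per library are given for the 12 members with the smallest p, the 3 pairs farthest apart and the 3 most abundant genes of each compartment, and for up to 4 genes of each list, by smallest p, at least the fold change; other values per library were picked after they were seen. Alternatives were DESeq2 1.42.0, other size factors and filters, a replicate block, offsets for GC content and length (mgcv 1.9.3), and leaving out each library.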

Additional observations from a re-analysis of the deposited data

How the results depend on the processing

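With other size factors, library size only or no filter, the synthetase calls stayed at 3 higher and 1 lower. In that order these fits called 0.458%, 0.265% and 0.275% of all genes higher, and 2.76%, 2.96% and 2.26% lower. The lower gene in each was VARS2, with 3 to 5 counts in each shSQLE library. DESeq2 called 7 higher (0.957% of all genes). GC content and length offsets gave 15 higher and 2 lower (12.1% and 8.68% of all genes), and the same offsets with the replicate block 17 higher and 2 lower (10.97% and 8.21%). The replicate block alone, and the filter of 10 counts in every sample, left 0 lower, since VARS2 (-1.94 with the block) was lost. The replicate numbers did not pair the libraries: libraries of the same number correlated at 0.138, -0.433 and 0.543, and the block changed no other member's call. Without 1 library in turn, 0 to 15 members were called higher and 0 to 2 lower, most without shControl 1. In those fits 0.0318% to 15.6% of all genes were called higher and 0.801% to 18.3% lower. Which cause lies behind this was not tested.

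Among the neighbouring genes, 2 were called higher and 5 lower (0.369% and 2.84% of all genes). Their lists held 8, 11, 18, 22 and 17 tested genes, beside 3 scaffolds. APOL1, among the 5, passed the filter through shControl and adds no support. With at least 10 counts in every sample, 4 were lower (2.22% of all genes). Beside the shares of all genes given above for the same fits, the counts were 4 higher with DESeq2, 23 higher and 16 lower with the offsets, and 21 and 16 with offsets and block. Without 1 library they were 0 to 20 higher and 2 to 14 lower, where 0.0318% to 15.6% of all genes were called higher and 0.801% to 18.3% lower. The cytosolic median of 0.27 was 0.33 with offsets and block, and the mitochondrial median of 0.17 ran from 0.14 to 0.22 without 1 library.

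Members near 0 changed sign without 1 library: FARSA (-0.027 to 0.39), LARS1 (-0.0014 to 0.22), VARS1 (-0.027 to 0.29), IARS2 (-0.091 to 0.17), TARS2 (-0.0044 to 0.25) and RARS2 (-0.076 to 0.057). RARS2 was also above 0 with DESeq2 (0.0017), the offsets (0.0014) and offsets with block (0.0071). Groups without overlap were not counted under DESeq2, the offsets or the block, which give no separate library values here. At these depths VARS2, with 3 to 19 counts a library, is the member whose size of change is least determined.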

Other observations

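The synthetase genes differed in how far their 3 control libraries spread. In the mitochondrial gene MARS2, shControl 1 had 152 normalized counts and the other control libraries 286 and 312, whereas the shSQLE libraries ran from 296 to 318. In FARSA, the alpha subunit of the phenylalanine enzyme, shControl 1 had 3001 normalized counts and the others 1971 and 1724, with 2179 to 2662 in shSQLE. FARSB, the partner subunit of the same enzyme, deviated the other way, with 1493 in shControl 1 against 1749.8 and 1781. The canonical transcript of FARSA has a GC content of 61.3% and that of FARSB 40.0%. In 14 members shControl 1 lay below the mean of the other controls and in 21 above it, and in 19 the distance exceeded 0.25 on the log2 scale. The cause was not tested.

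For serine, SARS1 rose, SARS2 stood at 0.38 on the log2 scale (adjusted p = 0.336, edgeR) and PHGDH rose, while PSPH, the last enzyme of serine synthesis, stood at 0.24 (adjusted p = 0.372). For asparagine, NARS1 and NARS2 stood at 0.30 and 0.34, and ASNS, which makes asparagine, had 13 to 16 normalized counts in all libraries. In GENCODE, 49.3% of the exon bases of ASNS are shared with a non-coding RNA on the same strand that is not in the count table. For leucine, tyrosine and tryptophan, whose carrier SLC7A5 rose, the cytosolic synthetases stood at 0.12 (LARS1), 0.72 (YARS1) and -0.27 (WARS1).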
